A study of Homo sapiens with 3 samples.

Results

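Glycolysis splits glucose into pyruvate in the cytosol and yields ATP without oxygen, and lactate dehydrogenase then turns pyruvate into lactate. Leukemic and activated myeloid cells are known for heavy use of this pathway. The 10 enzymes described here were the rows of the count table named by a fixed set of UniProt accessions, 1 enzyme for each of 9 steps of the pathway and LDHA for lactate. They were HK2 (P52789), GPI (P06744), PFKL (P17858), ALDOA (P04075), TPI1 (P60174), GAPDH (P04406), PGK1 (P00558), ENO1 (P06733), PKM (P14618) and LDHA (P00338). All 10 had a row among the 73321 features named by an accession, in a table of 213543 features in which the other 140222 carry Ensembl transcript identifiers.

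The samples were THP-1 cells, a human line of acute monocytic leukemia that carries the MLL-AF9 fusion, and RNA-seq was performed on total RNA. The control library was made from untreated cells (0 h), and the other libraries from cells kept for 8 h or 24 h with 0.2 µM GSK-LSD1, an inhibitor of the histone demethylase LSD1 (lysine-specific demethylase 1). Each time point was 1 library of 1 cell line, and no untreated library of 8 h or 24 h was analysed here, so time in culture, treatment and the individual library cannot be told apart. No replicate error exists for any value below, and no test between time points was made. The intervals given are exact 95% intervals of the counts (Poisson for a count, Clopper-Pearson for a ratio), and they cover counting error only.

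In the order 0 h, 8 h and 24 h, in which every set of 3 values is given below, the libraries held 1475938, 1310912 and 1444011 counts. A count of 0 therefore allows up to 3 counts, or 1.95, 2.34 and 2.11 CPM (counts per 1e+06 reads of the library size, which was scaled by TMM, the trimmed mean of M-values). Of 10 markers of monocytic leukemia cells, 7 had counts, LYZ (lysozyme) with 655, 747 and 1773, ITGAM (CD11b) with 87, 120 and 339 and MPO (myeloperoxidase) with 17, 18 and 18 among them, while CD33, CSF1R and FCER1G were listed at 0. Of 8 markers of other cells, 6 were listed at 0 in every library (among them CD3E, MS4A1, HBB, EPCAM and ALB), COL1A1 had 0, 4 and 2 counts, and PECAM1, which monocytes also express, had 1270, 1430 and 1962. PECAM1 thus held nearly all counts of these 8 markers, and its part in the results was not tested. CD86, the differentiation marker with which the study followed LSD1 inhibition, had 1, 19 and 37 counts. Its log2 ratio to the untreated library was 4.51 (1.86 to 9.89) after 8 h and 5.32 (2.76 to 10.7) after 24 h.

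Only HK2 among the 10 enzyme rows could be followed over time. It was higher in both treated libraries, with 15, 35 and 34 counts. GAPDH had 5, 1 and 4 counts and PKM had 1, 2 and 2. The remaining 7 enzymes, GPI, PFKL, ALDOA, TPI1, PGK1, ENO1 and LDHA, were listed at 0 in all 3 libraries. These are enzymes that nearly every cell uses, so a listing at 0 cannot be read as absence of the transcript. A row at 0 was common in the table, since 73.4% of all accession features had no count in any library, and 9.32% reached 10 counts in at least 1 library.

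**Figure D1:**
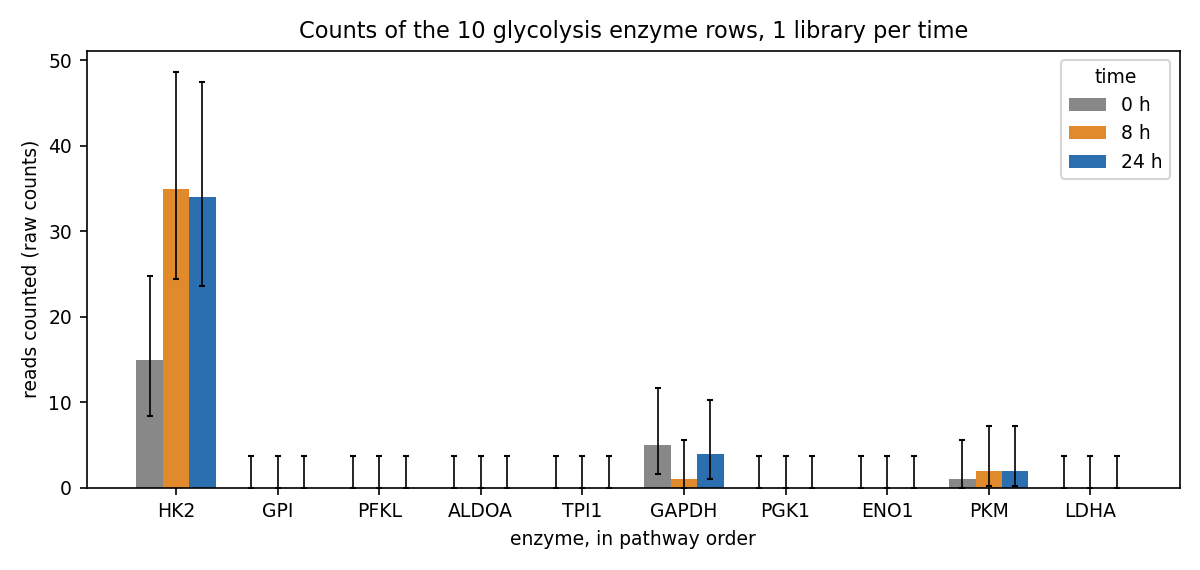
Raw counts (y axis) of the 10 enzyme features (x axis, in pathway order) in the single libraries of 0 h (grey), 8 h (orange) and 24 h (blue), with exact 95% Poisson intervals as bars. HK2 stands at 15, 35 and 34 counts, GAPDH and PKM at 5 or fewer, and the other 7 enzymes at 0.

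HK2, hexokinase 2, phosphorylates glucose at the entry of the pathway. On the CPM scale its level was 9.76 (5.46 to 16.1) before treatment, 27.3 (19.0 to 38.0) after 8 h and 23.9 (16.6 to 33.5) after 24 h. The 0 h interval did not overlap the intervals of the treated libraries, which overlapped each other. In bulk RNA, a different number of cells with HK2 transcripts and a different amount per cell cannot be told apart. The log2 ratio was 1.49 (0.58 to 2.46) at 8 h against 0 h, a fold of 2.80 (1.49 to 5.52). At 24 h against 0 h it was 1.29 (0.38 to 2.28), a fold of 2.45 (1.30 to 4.84). Between 8 h and 24 h the log2 ratio was -0.19 (-0.92 to 0.53), so a change in either direction over that time was not detectable at this depth. With 15 counts at 0 h, an interval above 0 needed at least 25 counts at 8 h or 28 at 24 h, and one below 0 needed at most 3 or 4.

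Set beside the whole table, the HK2 difference was one that a minority of features showed. With a prior count of 2, which pulls small counts toward each other, the log2 change of HK2 was 1.36 after 8 h and 1.18 after 24 h of treatment, and -0.18 from 8 h to 24 h. Among 9609 features that reached 10 counts in some library, 15.1% were higher by over 0.5 at 8 h against 0 h and 18.1% were lower. The shares were 18.2% and 17.9% for 24 h against 0 h, and 14% and 9.82% for 24 h against 8 h. A log2 change above 1 was found for 4.51% of features at 8 h and 6.19% at 24 h. Among the 1519 features with a mean of 20 to 40 counts, a range that holds HK2, the shares were 4.15% and 6.12%. The median over all features was -0.01 at 8 h and -0.01 at 24 h. As HK2 is 1 gene in 1 library per time, these shares describe where it stood and are not a test.

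The 10 enzymes together took 21, 38 and 40 counts. Their share of the untreated library was 0.00142% (0.000931 to 0.00218, Wilson 95% interval). It was 0.00290% (0.00211 to 0.00398) after 8 h and 0.00277% (0.00203 to 0.00377) after 24 h. The 8 h and 24 h intervals overlapped, and the 0 h interval met the others at its upper end. HK2 accounted for 71.4% of these reads before treatment (50.04 to 86.2), 92.1% (79.2 to 97.3) after 8 h and 85% (70.9 to 92.9) after 24 h. These are shares of reads and not of transcripts, and all 3 intervals overlapped.

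GAPDH, which oxidizes glyceraldehyde 3-phosphate and is often taken as a constant reference gene, had too few counts to serve as one. Its log2 ratio was -2.06 (-7.62 to 1.10) at 8 h against 0 h and -0.21 (-2.54 to 2.01) at 24 h, and both intervals held changes in either direction. For PKM, the pyruvate kinase that forms pyruvate and ATP at the last step, both counts of each comparison were at or under 3, and no ratio is given.

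The HK2 gene spans bases 74834127 to 74893359 of chromosome 2 in GRCh38, on the forward strand. GENCODE v44 annotates 3 HK2 transcripts there, 2 of them coding. The canonical transcript, ENST00000290573.7, has 18 exons and 5626 exon bases. Of these, 517 bases lie in no exon of a transcript with another coding sequence, and they are the whole of exon 1 (74834127 to 74834643), with 63 coding bases and 454 bases of UTR. The other coding transcript starts at an exon of its own and shares the remaining exons. How the authors' counting treated reads in shared exons is not given in the sources used here, and which exons the HK2 reads fell in was not tested.

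**Figure D2:**
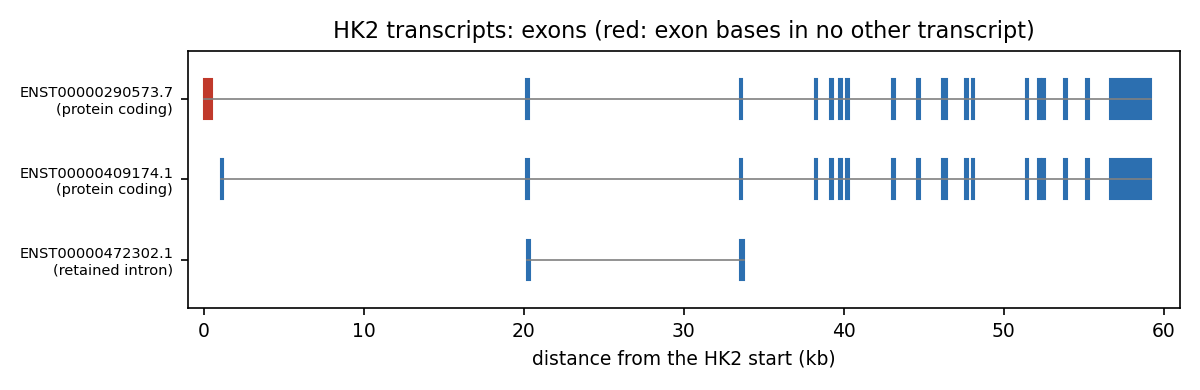
Exons of the 3 annotated HK2 transcripts by distance from the start of the gene in kb (x axis), with exon 1 of the canonical transcript in red and all other exons in blue. The red exon of 517 bases is the stretch of the canonical transcript that neither of the other transcripts contains.

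The 250 bases before the starts of both coding transcripts of HK2 are shown because HK2 was the enzyme with a countable difference. The same window of PKM is shown because its transcripts, described below, differed in the same direction. The label "second coding start" means the start of the other coding transcript of HK2, not of its coding sequence. Capitals mark ACGTG or GCGTG on either strand, the core of the hypoxia response element through which HIF-1 is known to act on glycolysis genes. CACGTG, the E-box bound by MYC, overlaps ACGTG. The sequences are RefSeq's for GRCh38.p14, written 5′ to 3′ on the strand of the gene.
HK2, start of the canonical transcript, chr2:74833877-74834126, forward strand: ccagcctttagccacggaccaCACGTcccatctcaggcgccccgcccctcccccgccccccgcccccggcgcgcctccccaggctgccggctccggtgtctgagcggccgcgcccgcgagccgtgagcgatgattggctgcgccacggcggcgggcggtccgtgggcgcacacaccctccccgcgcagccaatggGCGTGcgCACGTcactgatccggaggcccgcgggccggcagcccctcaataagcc
HK2, second coding start, chr2:74834920-74835169, forward strand: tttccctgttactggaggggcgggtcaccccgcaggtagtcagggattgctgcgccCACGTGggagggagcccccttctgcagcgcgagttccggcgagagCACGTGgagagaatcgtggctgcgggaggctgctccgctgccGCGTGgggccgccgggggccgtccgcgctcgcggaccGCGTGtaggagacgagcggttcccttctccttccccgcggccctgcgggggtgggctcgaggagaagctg
PKM, chr15:72231191-72231440, reverse strand: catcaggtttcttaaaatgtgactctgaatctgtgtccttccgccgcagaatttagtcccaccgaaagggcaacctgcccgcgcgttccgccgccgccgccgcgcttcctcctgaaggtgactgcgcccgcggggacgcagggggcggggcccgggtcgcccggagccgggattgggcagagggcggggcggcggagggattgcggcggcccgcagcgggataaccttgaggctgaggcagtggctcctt
The first HK2 window held 2 ACGTG, 1 GCGTG and 0 CACGTG, and the second held 4, 2 and 2. Both strands were counted, so each CACGTG counts as 2 ACGTG. The 4 ACGTG of the second window are therefore the same sites as its 2 CACGTG. The PKM window held 0 of each. Of 35116 RefSeq windows of the same length, 18.5% held ACGTG, 32.2% GCGTG, 6.34% CACGTG and 43.2% either core. The 10 enzymes had 15 windows, since some have several starts. ACGTG was found in 10 of these windows (7 genes), GCGTG in 7 (6 genes) and CACGTG in 4 (4 genes). TPI1 and LDHA were among the genes with 2 windows that differed in their motifs. A match says only that these letters stand in the window.

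The annotation gives the exons of most of the 10 genes to several transcripts. The canonical transcripts of GPI, PFKL, ALDOA, TPI1, GAPDH and PKM had 0 exon bases outside the exons of transcripts with another coding sequence, and ENO1 had 2 of 1781. LDHA had 207 of 2241, all in exon 8 of 8. PGK1, the kinase that makes the first ATP of the pathway, had 2504 of its 4812 exon bases unshared, 158 in exon 1 and 2346 in exon 11 of 11. The zeros did not follow this measure strictly, since PGK1 and LDHA were listed at 0, while GAPDH and PKM had counts without an unshared base.

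Across 95 metabolic genes with a row, the 10 enzymes included, the same measure was set beside the counts. Of 52 genes with under 50 unshared bases, 29 (55.8%) were listed at 0 in all libraries and 11 (21.2%) reached 10 counts, with a median over genes of 0 for the mean count. Of 43 genes with 50 or more, 9 (20.9%) were at 0 and 26 (60.5%) reached 10 counts, with a median of 16.3. Spearman's rho between unshared bases and mean count was 0.41 over the 95 genes, which share the same 3 libraries. Exceptions stood on both sides. FH (fumarase), with 0 unshared bases, had 453, 443 and 419 counts, and ACLY (ATP citrate lyase), with 43, had 1244, 1217 and 1277. The part of transcript sharing in the zeros was not tested.

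**Figure D3:**
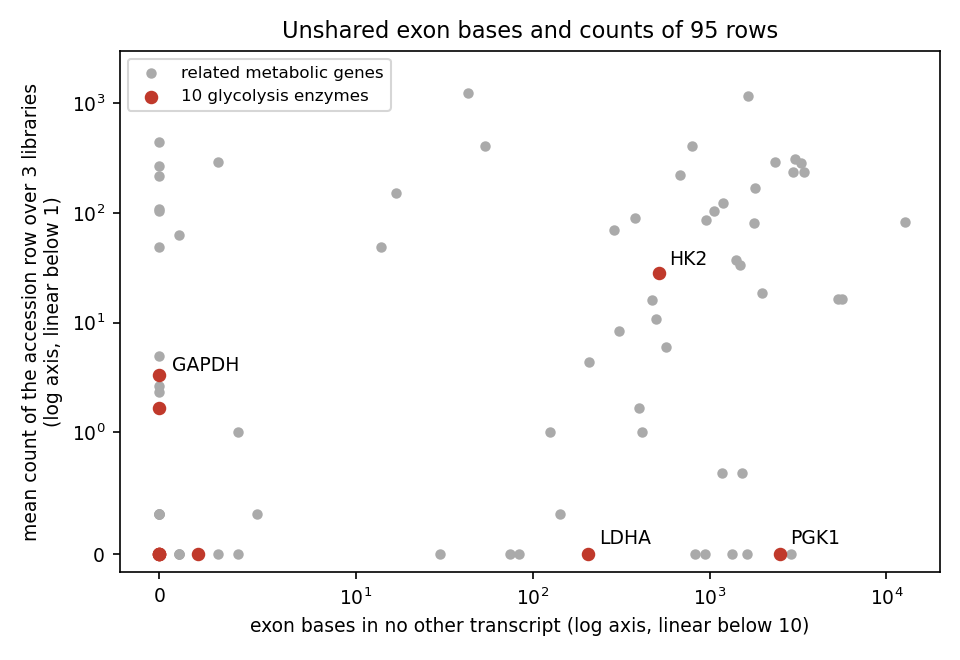
Mean count over the 3 libraries (y axis, log scale, linear below 1) against exon bases of the canonical transcript that lie in no transcript with another coding sequence (x axis, log scale, linear below 10) for 95 metabolic genes, 1 point per gene, with the 10 enzymes in red. HK2 lies among counted genes with 517 unshared bases, and PGK1 lies at 0 counts with 2504.

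Reads of the 10 genes were also counted under transcripts that have a row of their own. Most of these are annotated as retained-intron transcripts, a class that holds intron sequence and encodes no complete enzyme. These counts were added after the accession values had been seen. They came to 20, 45 and 45 counts over 9 rows for PKM, 23, 19 and 24 over 7 for GPI, 25, 7 and 13 over 9 for PFKL, and 15, 16 and 16 over 6 for ENO1. LDHA had 13, 12 and 3 over 6 rows and ALDOA 10, 11 and 3 over 6. TPI1, GAPDH and PGK1 had 4 or fewer counts in any library, and HK2 had 0. They do not measure the coding transcripts, none of which has a row under a transcript identifier. Whether other accessions of the same genes hold counts of coding transcripts was not looked up, so the sums below may not cover a whole gene.

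PKM was the gene whose transcripts differed most like HK2. The PKM gene lies on the reverse strand of chromosome 15 (72199029 to 72231819), and all 9 of its transcript rows are annotated as retained introns. With the accession included, PKM had 21, 47 and 47 counts. Its log2 ratio was 1.43 (0.65 to 2.24) at 8 h against 0 h and 1.28 (0.50 to 2.09) at 24 h, and -0.15 (-0.76 to 0.47) at 24 h against 8 h. Retained-intron transcripts in general leaned the other way. Of 1080 tested, 16.6% were higher by over 0.5 at 8 h and 33.4% lower, and at 24 h the shares were 18.3% and 31.6%, with medians of -0.20 and -0.17. The interval of a summed gene, here and below, takes each count as a separate read. PKM rows overlap in part, and whether a read was counted in several rows was not tested, so these intervals may be too narrow.

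The largest PKM row was ENST00000564440, of 3 exons and 3016 bases at the 3′ end of the gene (72199029 to 72204559). Its counts were 10, 20 and 18, with log2 ratios to 0 h of 1.26 (0.10 to 2.52) after 8 h and 0.96 (-0.23 to 2.24) after 24 h. Other PKM transcripts share 52.3% of its exon bases and other genes 0%. The overlapping ENST00000565143 (72199036 to 72202053) had 7, 12 and 13 counts, with ratios of 1.04 (-0.42 to 2.62) and 1.01 (-0.42 to 2.57) on the log2 scale, both with intervals that included 0. Neither of these 2 transcripts contains a whole intron of the canonical PKM transcript, which has 10. Reads of the spliced PKM transcripts cannot be told apart from those of either transcript over the shared bases.

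PFKL, the liver-type phosphofructokinase of the committed step, had fewer transcript counts after treatment. Its log2 ratio was -1.57 (-3.03 to -0.32) at 8 h against 0 h and -0.83 (-1.92 to 0.19) at 24 h, where the interval included 0. Most of this came from 1 transcript, ENST00000466134, which spans chromosome 21 from 44300096 to 44327376 in 20 exons and keeps introns 7 and 11 of the canonical transcript. Its counts were 23, 6 and 10, with log2 ratios to 0 h of -1.68 (-3.26 to -0.34) after 8 h and -1.09 (-2.32 to 0.04) after 24 h. It is a retained-intron transcript, and of all those tested 33.4% were lower by over 0.5 at 8 h and 31.6% at 24 h.

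The lower counts of LDHA and ALDOA were those of the 24 h library. For LDHA, which reduces pyruvate to lactate, the log2 ratio was 0.15 (-1.11 to 1.40) at 8 h and -2.002 (-4.45 to -0.14) at 24 h against 0 h. For ALDOA, which splits fructose bisphosphate, it was 0.40 (-0.97 to 1.79) and -1.62 (-4.12 to 0.33), and at 24 h against 8 h it was -2.02 (-4.50 to -0.10). Both rest on 3 counts at 24 h, all in retained-intron transcripts, of which 31.6% of those tested were lower by over 0.5 at 24 h. The ALDOA transcript with the most counts, ENST00000564521 with 9, 10 and 3, shares 54.9% of its exon bases with exons of other genes, so its reads cannot be assigned to ALDOA alone.

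GPI, which converts glucose 6-phosphate to fructose 6-phosphate, and ENO1, which forms phosphoenolpyruvate, had intervals around 0. The GPI log2 ratio was -0.01 (-0.97 to 0.93) at 8 h and 0.17 (-0.71 to 1.07) at 24 h against 0 h. That of ENO1 was 0.36 (-0.75 to 1.47) and 0.21 (-0.90 to 1.33). Differences of up to about these bounds were not detectable. These counts, mostly of retained-intron transcripts, did not share 1 direction. PKM was higher in both treated libraries, PFKL lower at 8 h and LDHA lower at 24 h. GPI, ALDOA and ENO1 had intervals against 0 h that included 0. As the counts do not measure the coding transcripts, they give no direction for the pathway.

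**Figure D4:**
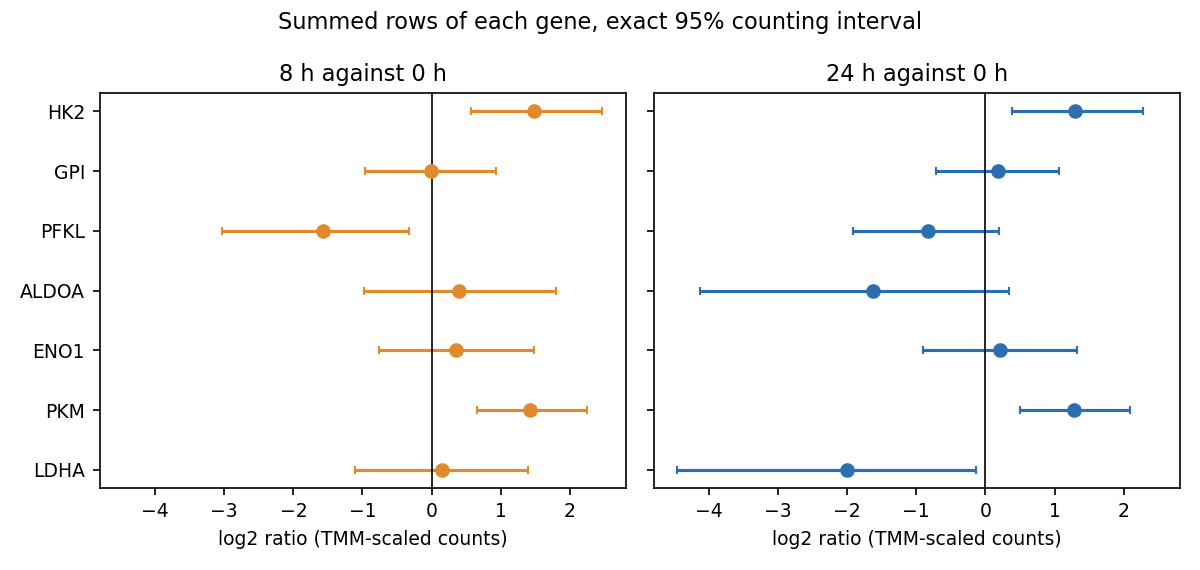
Log2 ratio (x axis, TMM-scaled counts) of the summed accession and transcript counts of 7 enzymes (y axis) for 8 h (left panel) and 24 h (right panel) relative to 0 h, with exact 95% counting intervals. HK2 and PKM lie above 0 in both panels, PFKL lies below 0 at 8 h and LDHA below 0 at 24 h. The sums hold the listed accession of each enzyme and its transcript rows, none of a coding transcript, and may not cover the whole gene.

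Glycolysis genes have left many processed pseudogenes, copies of spliced mRNA elsewhere in the genome. Of 65 annotated GAPDH pseudogenes, the rows summed to 41, 58 and 59 counts, more than the GAPDH accession itself. LDHA had 6 pseudogenes with 44, 30 and 51 counts, and TPI1 had 4 with 14, 8 and 6. The pseudogenes of HK2, ALDOA, PGK1, ENO1 and PKM had 5 or fewer counts per parent gene in any library.

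GAPDHP75, on the reverse strand of chromosome 1 (189132350 to 189133292), held most of the GAPDH pseudogene reads. Its counts were 24, 43 and 43, with log2 ratios to 0 h of 1.10 (0.35 to 1.89) after 8 h and 0.95 (0.20 to 1.74) after 24 h. Its sequence was 80.9% identical to the GAPDH transcript over 899 aligned columns. The stretch below, bases 128 to 207 of the GAPDH transcript ENST00000229239.10 and within its coding sequence, is shown to let the likeness be judged over a short stretch. Capitals mark the 12 mismatches in 80 bases, and the sequences are from GENCODE v44.
GAPDH: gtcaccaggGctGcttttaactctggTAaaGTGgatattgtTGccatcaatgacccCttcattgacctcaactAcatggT
GAPDHP75: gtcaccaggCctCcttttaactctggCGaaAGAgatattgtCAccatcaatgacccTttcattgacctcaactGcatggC
The identity of GAPDHP75 to its parent was lower than that of the LDHA pseudogenes LDHAP3 (92.2%) and LDHAP7 (89.8%). LDHAP3 had 18, 11 and 12 counts and LDHAP7 had 22, 19 and 32. The counts of pseudogenes and parent genes are uncertain where reads could be assigned to either, and the part of shared reads was not tested.

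Other isozymes of glycolysis, with a few related enzymes listed among them, had few counts as well. Of 19 listed, 17 had a row, 11 of those were at 0 in all libraries and 1 reached 10 counts. Among the hexokinases, HK1 was listed at 0 and HK3 had 6, 5 and 7 counts, with log2 ratios to 0 h whose intervals included 0 (-2.05 to 1.98 after 8 h and -1.46 to 2.18 after 24 h). The gene of this list that could be followed was BPGM, which is not an isozyme of any of the 10 enzymes. BPGM makes 2,3-bisphosphoglycerate from a glycolysis intermediate and was chosen after its values were seen. With 25, 40 and 46 counts, its log2 ratios to 0 h were 0.94 (0.18 to 1.72) after 8 h and 0.99 (0.26 to 1.76) after 24 h. Log2 changes above 0.5 were found for 15.1% of all features at 8 h and 18.2% at 24 h.

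The genes around the pathway were described by 5 lists of 89 genes with the isozymes included, 85 with a row, 31 at 0 and 36 that reached 10 counts. At 8 h against 0 h, 5 of the 36 were higher by over 0.5 and 4 lower, with a median log2 change of -0.06. At 24 h 4 were higher and 5 lower, with a median of 0.01. Both medians stood near that of all features, and these counts out of 36 were not above the background shares given with HK2. The balance at 8 h depended on the scaling, since scaling by total counts gave 2 higher and 6 lower.

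Transport and regulation of glycolysis included 12 genes tested, of which 1 was higher and 1 lower at each time against 0 h. Over all features, 15.1% were higher and 18.1% lower at 8 h, and 18.2% and 17.9% at 24 h. With 12 genes, these counts are no result about the list. The lower gene was SLC2A1, the glucose transporter GLUT1, with 14, 5 and 6 counts. Its log2 ratio to 0 h was -1.22 (-3.05 to 0.33) after 8 h. The higher gene was TIGAR, a phosphatase that lowers fructose 2,6-bisphosphate, with 12, 15 and 22 counts. Its log2 ratio to 0 h was 0.99 (-0.09 to 2.14) after 24 h. Both were named after their values were seen, and both intervals included 0. Genes with more reads stayed within 0.5 of 0 h at 24 h. Among them, the lactate transporter SLC16A1 had 319, 226 and 326 counts, SLC16A3, which exports lactate, had 344, 250 and 273, and PFKFB3, which makes fructose 2,6-bisphosphate, had 113, 93 and 119.

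The pentose phosphate pathway, which branches from the product of hexokinase and yields NADPH, had 6 genes tested. At 24 h against 0 h, 2 were higher and 1 lower, beside 18.2% and 17.9% of all features, and 6 genes are too few to set against those shares. PGD, the 6-phosphogluconate dehydrogenase, had 182, 209 and 276 counts, and its log2 ratio was 0.71 (0.44 to 0.99). H6PD, which carries out the first steps in the endoplasmic reticulum, had 187, 232 and 282, again with a ratio of 0.71 (0.43 to 0.98) on the log2 scale. RPE, the ribulose-phosphate epimerase, had 288, 176 and 180, with a ratio of -0.56 (-0.84 to -0.29).

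Pyruvate dehydrogenase and the citric acid cycle, which take up pyruvate in the mitochondrion, had 10 genes tested, with 0 higher and 3 lower at each time against 0 h. Over all features, 18.1% were lower at 8 h and 17.9% at 24 h, and 15.1% and 18.2% were higher, so with 10 genes these counts are no result about the list. The 3 were SDHD and PDHX at both times, with PDHA1 at 8 h and DLD at 24 h. SDHD, a membrane subunit of succinate dehydrogenase, had 106, 49 and 52 counts, with log2 ratios to 0 h of -0.85 (-1.37 to -0.35) after 8 h and -0.91 (-1.42 to -0.42) after 24 h. PDHX, a structural subunit of pyruvate dehydrogenase, had 70, 38 and 37 counts, with log2 ratios of -0.62 (-1.23 to -0.03) after 8 h and -0.81 (-1.42 to -0.21) after 24 h. The list's median log2 change was -0.01 at 8 h and -0.09 at 24 h. In the side branches (glycogen, hexosamine, glycerol and serine pathways), 2 of 7 genes were higher at 8 h and 0 were past 0.5 in either direction at 24 h.

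By the distance between the log2 changes at 8 h and 24 h, the genes most like HK2 among the 20 related genes with a mean of at least 100 counts were H6PD (distance 0.93), PGD (1.02) and DLST (1.30), a subunit of the oxoglutarate dehydrogenase complex. HK2 itself lies below that minimum. Over all 36 related genes tested, a comparison added after the values were seen, BPGM (0.54) and TIGAR (0.91) were nearer than H6PD. HK2 was the only enzyme of the 10 that entered this measure. The distance rests on 2 changes that share the 0 h library, and all 4 of these nearest genes changed less than HK2 at both times.

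**Figure D5:**
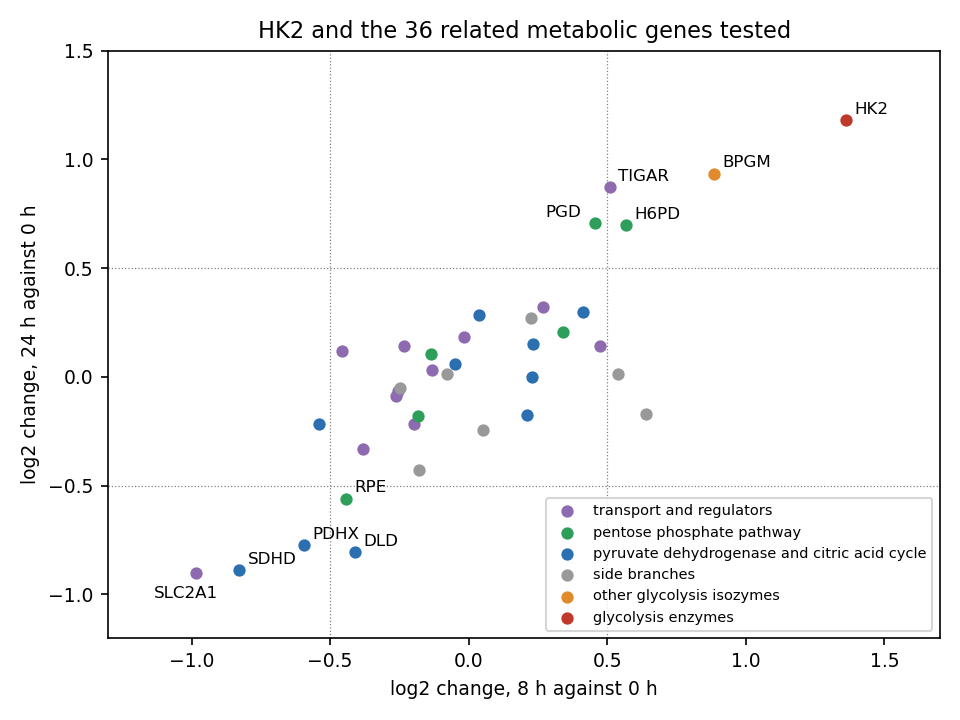
Log2 change from 0 h to 24 h (y axis) and from 0 h to 8 h (x axis), with a prior count of 2, of HK2 and the 36 related metabolic genes tested, 1 point per gene, colored by list, with dotted lines at 0.5 and -0.5. HK2 lies at 1.36 and 1.18, farther up and right than every related gene, and both axes share the 0 h library.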

How the data were processed

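RNA-seq libraries of THP-1 cells at 0 h, 8 h and 24 h of GSK-LSD1 were analysed, 1 per time point, grouped by their labels. The authors processed the reads with the Seq2science pipeline (fastp and STAR are named in the submitters' notes, hg38 as build) and deposited raw counts per feature without normalization. The annotation, the counting tool and how it treated strand and shared reads are not given in the sources used here, and the reads carry no molecular identifiers. Library sizes were scaled by TMM (edgeR 4.0.16, R 4.3.3) on the 9609 features that reached 10 counts in some library. Log2 changes came from CPM with a prior count of 2 and a threshold of 0.5, and log2 ratios with intervals used no prior count. No ratio was given where both counts were 3 or fewer. Intervals came from scipy 1.17.1 and statsmodels 0.14.6 in Python 3.11.15 (numpy 2.4.6, pandas 2.3.3), alignments from Biopython 1.88. The scripts were tested on simulated data. Alternatives included DESeq2 1.42.0 size factors.

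Gene positions, transcripts and pseudogenes were matched by identifier or gene name to GENCODE v44. All 10 enzymes were found in RefSeq's promoter table. The file does not pair accessions with genes: the 10 enzymes were paired by their rule, and the genes of the related and marker lists by knowledge of their UniProt entries. Members and lists were chosen with earlier results of these data known. From each related list, the rule named up to 3 genes higher and 3 lower at 24 h past 0.5 with at least 50 counts in a library. Genes outside it, among them FH, ACLY, PDHA1, DLD, HK1, HK3, SLC16A1, SLC16A3 and PFKFB3, were named after their values were seen, as examples.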

Additional observations from a re-analysis of the deposited data

How the results depend on the processing

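No paired analysis was possible because each time point had 1 library, and for the same reason no library could be left out. Of 135 alternative values of 34 results, 123 kept their direction and stayed close to the reported value, 12 moved and 0 reversed. These results are not independent. HK2 was the only enzyme that reached 10 counts, so the reported median change and numbers of enzymes past the threshold restate HK2. The log2 ratio of HK2 kept its sign under DESeq2 size factors, total counts, total counts of accession features, a loess correction and scaling by the related metabolic genes, the last chosen after seeing the data. Without a filter on low counts, 2 enzymes in place of 1 were higher at 8 h against 0 h, 1 in place of 0 was lower, and 1 in place of 0 was higher at 24 h against 8 h. The only rows with counts that this setting adds are GAPDH, with 5, 1 and 4 counts, and PKM, with 1, 2 and 2. With the counting interval wholly past the threshold, 0 enzymes in place of 1 were higher at 24 h against 0 h. With a mean of at least 100 counts, fewer genes were tested, and relative to 0 h, 1 related gene was higher and 0 lower at 8 h, while 2 were higher and 1 lower at 24 h. Scaling by total counts gave 2 related genes higher and 6 lower at 8 h in place of 5 and 4, and 4 higher and 6 lower at 24 h in place of 4 and 5. For the scaling by total counts, the cause was not tested. Without HK2, GAPDH held 83.3%, 33.3% and 66.7% of the enzymes' reads. These shares have no interval here and rest on 5, 1 and 4 GAPDH counts beside 1, 2 and 2 of PKM, too few to compare. The table has no features named by an enzyme's accession with an isoform suffix, so that alternative gave no value, and neither did the stricter filter for the enzymes. At this depth, the exact Poisson interval of a count of 0 reached up to 3.69 counts, and HK2 alone had enough counts to show a change.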
